A study of Mus musculus with 2 samples.

Results

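Integrins and laminins join cells to the basement membrane, and the genes described here are all the integrin alpha and beta chains and all the laminin alpha, beta and gamma chains found in a table of heart RNA. The members were picked out by gene symbol, leaving out the integrin-binding proteins and the integrin-like gene whose symbols look alike. The rule found 38 of the 24542 gene symbols, namely 18 integrin alpha, 9 integrin beta, 5 laminin alpha, 3 laminin beta and 3 laminin gamma chains.

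Male C57BL/6 mice had the left anterior descending coronary artery ligated permanently near its origin, a model of myocardial infarction, and RNA of the left ventricle was read 7 days later. NRK-2 KO mice lack nicotinamide riboside kinase 2, a muscle enzyme of NAD synthesis encoded by Nmrk2, and were compared with littermate controls that had the same ligation. Neither group is an unoperated heart, and the muscle taken was remote from the infarct, without scar or border zone. The labels give no age, do not say in which cells the gene was deleted and do not say whether animals were pooled. They list 1 sample per genotype. Of each genotype 3 libraries were counted, KO 1 to 3 and control 1 to 3 after their column labels.

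An integrin is a pair of an alpha and a beta chain that spans the membrane, binds matrix outside and is coupled to actin inside through talin, kindlin and the complex of integrin-linked kinase. A laminin is a cross of an alpha, a beta and a gamma chain that polymerises into the sheet on which a basement membrane is built. In heart muscle the pair of Itga7 and Itgb1 and the dystroglycan complex hold the cardiomyocyte to laminins that carry the Lama2 chain, while vessel walls use laminins with Lama4 or Lama5. Fibroblasts grip collagen through Itga11 with Itgb1, partners of Itgav bind fibronectin, vitronectin and latent TGF-beta, and leukocytes carry pairs built on Itgb2 and Itgb7.

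The KO libraries held 26975513 to 33086384 counted reads and the control libraries 22377348 to 22831189. Nmrk2 itself was at 27.9, 0.252 and 0 CPM (reads of a gene scaled to library size with TMM factors) in KO 1, 2 and 3, against 15.1, 13 and 4.79 CPM in control 1, 2 and 3. The library labelled KO 1 thus went against its label and is called KO 1 here by label only. The difference was not called (log2 fold change -0.22, adjusted p = 0.952 by edgeR), and the 0 reads in KO 3 allow up to 0.11 CPM. The libraries also differed in tissue markers. Atrial Myl7 was at 127 CPM in KO 1 and at 205 and 162 CPM in control 1 and 2, against 1.15 CPM or less in the other 3. Sln and Myl4, from the same list of 5 atrial markers, were highest in the same libraries. Nppa and Nr2f2, also on it, did not follow this pattern. Nppa was at 2419, 2349.7 and 3022 CPM in KO and at 442, 572 and 108 CPM in control. Nr2f2 was at 20.7 to 23.1 CPM in KO and 11.3 to 24.1 CPM in control. The summed level of 3 lung epithelium markers was 264 CPM in KO 2 and 11.1 CPM in KO 3, against 0.243 CPM or less in the other 4. B cell markers, 4 genes, summed to 212 CPM in control 3 and 40.5 CPM in KO 2, against 5.91 CPM or less elsewhere, with Cd79a at 0 in some. Cardiomyocyte markers were abundant in all libraries, with 7 genes summing to 36309 to 55875 CPM in KO and 56813 to 89814 CPM in control, none at 0. All 7 had a log2 fold change below 0 (median -0.70). In 4 every KO library lay below every control library, as in 14.5% of all genes tested. By edgeR 0 of the 7 were called, and by DESeq2 4 were called lower, as were 9.19% of all genes. In whole tissue, fewer cells of a type and less RNA per cell cannot be told apart.

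Of the 38 chains, 35 had enough reads to be tested, and 6 of them passed edgeR's quasi-likelihood test at an adjusted p under 0.05 (Benjamini-Hochberg over all 14466 genes tested), all with higher levels in KO. These were the integrin chains Itga11, Itgav, Itgb1 and Itgb5 and the laminin chains Lamb1 and Lamc1. Over all genes tested 3.7% were called, 2.61% higher in KO and 1.09% lower. No chain was called lower by edgeR, with 13 higher and 2 lower (Itgb6 and Lamc3) at an unadjusted p under 0.05, and DESeq2 called 10 chains higher and the same 2 lower. DESeq2 called 7.71% of all genes higher and 9.19% lower, while 12.3% and 13.5% were higher and lower at an unadjusted p under 0.05. The median log2 fold change (KO over control) was 0.46 over the tested chains and 0.01 over all genes tested. Among the tested chains 28 had a log2 fold change above 0, where 51% of all genes tested had one.

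In 14 chains every KO library lay above every control library, a pattern shown by 16.4% of all genes tested, and in 2 chains, Itgb6 and Lamc3, every KO library lay below every control library, as did 14.5% of all genes. The calls depended on single libraries. When KO 1, 2 and 3 were left out in turn, 2, 1 and 0 chains were called higher, beside 0.529%, 0.254% and 0.0204% of all genes. When control 1, 2 and 3 were left out in turn, 1, 1 and 13 chains were called higher, beside 0.288%, 0.168% and 11.6% of all genes. Chains called lower numbered 2 without control 3 (Itgb6 and Itga8) and 0 in the other 5 fits. The share of all genes called lower was 12.9% without control 3, 0.0679%, 0.0686% and 0% without the KO libraries and 0.0268% and 0% without the other controls. Without KO 1, whose Nmrk2 level went against its label, Itga11 and Itgb5 kept their calls (log2 fold change 2.59 and 1.59, adjusted p = 0.0177 and 0.0464 by edgeR). Lamc1, Itgav, Itgb1 and Lamb1 then had log2 fold changes of 0.87, 0.93, 0.71 and 0.65 and lost theirs (adjusted p = 0.109, 0.126, 0.151 and 0.153 by edgeR).

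**Figure D1:**
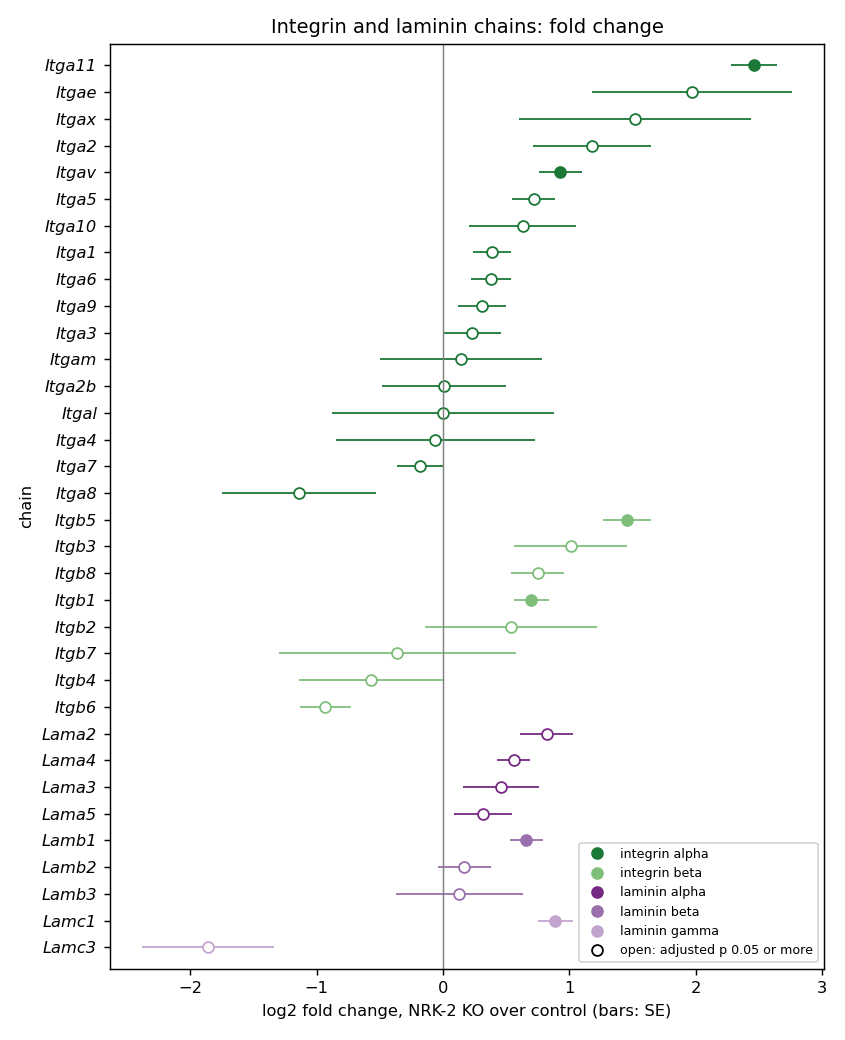
Log2 fold change, NRK-2 KO over control, of 25 integrin and 9 laminin chains tested, with bars of 1 SE and filled points for an adjusted p under 0.05. The 6 filled points lie between 0.66 and 2.46, and the widest bars belong to the leukocyte chains Itgb7, Itgax and Itgal.

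The promoters of 3 called chains are shown because these genes were higher together in KO. They had the smallest p among called chains with an entry in the RefSeq promoter set used here, which held none for Lamc1. The windows printed are the 250 bases before the RefSeq start (GRCm38.p6), all on the plus strand, in 5′ to 3′ direction. Capitals mark matches, on either strand, to GGGCGG, the core letters of an Sp1 site.
Itga11, chr9:62677605-62677854: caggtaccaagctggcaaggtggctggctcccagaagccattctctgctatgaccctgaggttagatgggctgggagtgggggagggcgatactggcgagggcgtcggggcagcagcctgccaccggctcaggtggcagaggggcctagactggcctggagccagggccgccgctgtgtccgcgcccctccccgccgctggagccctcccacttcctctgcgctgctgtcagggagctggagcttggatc
Itgb5, chr16:33829415-33829664: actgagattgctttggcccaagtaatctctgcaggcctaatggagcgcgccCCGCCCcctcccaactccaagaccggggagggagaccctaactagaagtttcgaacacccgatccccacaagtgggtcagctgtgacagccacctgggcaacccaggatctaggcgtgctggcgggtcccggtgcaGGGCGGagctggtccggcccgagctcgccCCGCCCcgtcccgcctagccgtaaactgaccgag
Itgav, chr2:83724147-83724396: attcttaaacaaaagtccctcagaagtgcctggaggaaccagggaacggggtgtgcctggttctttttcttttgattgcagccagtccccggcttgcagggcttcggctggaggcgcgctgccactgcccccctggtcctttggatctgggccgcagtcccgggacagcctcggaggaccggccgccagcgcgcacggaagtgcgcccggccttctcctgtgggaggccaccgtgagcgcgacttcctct

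GC content was 68.4%, 65.2% and 64.4% in the order printed, against a median of 52.4% over 32851 promoters of the same length. Itgb5 had 3 matches to GGGCGG and the other 2 windows had 0, while 32.7% of all promoters held at least 1. TGANTCA (AP-1) was in 6.75% of all promoters, GGAATG (TEAD) in 12.6% and TATAAA, the letters of a TATA box, in 12.4%, and these 3 windows held none of them on either strand. The RefSeq promoter set used here had entries for 24 of the 38 chains, with 27 promoters in all. Of these, 9 held GGGCGG, 3 held GGAATG (Lamb3, Itga10 and Itgb1), 1 held TGANTCA (Itgax) and 0 held TATAAA. A match describes only the letters of the window.

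Itga11, the collagen-binding alpha chain typical of fibroblasts (gene ID 319480, chromosome 9 from 62677855 to 62783979, GRCm38.p6), had the largest fold change of the tested chains. It was at 56.2, 77.1 and 77 CPM in KO 1, 2 and 3 and at 10.8, 13.1 and 14.4 CPM in control 1, 2 and 3. The lowest KO library was far above the highest control library. The means were 70.1 ± 12 CPM in KO and 12.8 ± 1.78 CPM in control (SD, n = 3 libraries each), a 5.49-fold difference by edgeR (log2 fold change 2.46 with an SE of 0.18, adjusted p = 0.00899). Its call was lost without KO 3 (adjusted p = 0.0575 by edgeR, log2 fold change 2.37) and held without any other single library.

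The 6 fibroblast markers, none of them at 0, summed to 11684 to 13915 CPM in KO and 2629 to 6068 CPM in control. All 6 had a log2 fold change above 0 (median 1.09). Of these markers 1, Postn, passed edgeR's test, where 2.61% of all genes tested were called higher. Col1a1, Lum and Tcf21 had groups that did not overlap without passing. With Postn, 4 of the 6 had every KO library above every control library, as in 16.4% of all genes. DESeq2 called 4 higher, beside 7.71% of all genes. Dcn, a matrix proteoglycan of fibroblasts, was at 1324, 1690.4 and 1783 CPM in KO and 1166, 1486 and 1753 CPM in control, with overlap (log2 fold change 0.12, adjusted p = 0.761 by edgeR). Pdgfra, a receptor of resting cardiac fibroblasts, was at 179, 256 and 226 CPM in KO and at 121, 176 and 261 CPM in control, and these ranges overlapped too. The part of fibroblast number in the Itga11 result was not tested.

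The 3 other collagen-binding alpha chains did not pass. Itga1, whose pair with Itgb1 prefers collagen of basement membranes, was at 208, 171 and 166 CPM in KO and at 156, 132 and 128 CPM in control (log2 fold change 0.39, adjusted p = 0.149 by edgeR). Itga2 was at 3, 7.87 and 3.47 CPM in KO and 2.01, 1.54 and 2.76 CPM in control, highest in KO 2 (log2 fold change 1.18, adjusted p = 0.172 by edgeR). In both of these chains the groups did not overlap. Itga10, best known from cartilage, ranged from 2.42 to 6.77 CPM in KO and from 2.7 to 3.69 CPM in control. Per transcript length, in FPKM, Itga11 stood to Itga1 at ratios of 0.327, 0.545 and 0.563 in KO and 0.0839, 0.12 and 0.136 in control.

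Itgb1, the beta chain shared by most matrix-binding integrins (gene ID 16412, chromosome 8 from 128685654 to 128733579), was the most abundant chain of all per length, at 260.2 ± 9.84 FPKM in KO and 149 ± 4.14 FPKM in control. It was at 1054, 1072 and 1084 CPM in KO and at 672, 704 and 600.4 CPM in control. The 3 KO libraries were nearly level and all above control. The fold change was 1.62 (log2 fold change 0.70 with an SE of 0.14, edgeR adjusted p = 0.0498), just inside the threshold. By edgeR it was outside it with RLE scaling (adjusted p = 0.0552), without a count filter (0.0623) and on each gene's transcript with the most reads (0.0725). Only 1 transcript is listed for Itgb1, so in this last fit its own reads were unchanged and only other genes' reads differed. It was also outside in 5 of 6 fits without a library (up to 0.181), the exception being the fit without control 3 (0.0271).

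Itgav and its beta partners form the receptors for fibronectin, vitronectin and the latent form of TGF-beta. Itgav (gene ID 16410, chromosome 2 from 83724397 to 83806917) was at 234, 256 and 213 CPM in KO and at 97.6, 132 and 139.7 CPM in control, with no overlap. The difference was 1.9-fold (log2 fold change 0.93 with an SE of 0.17, edgeR adjusted p = 0.0406). Itgb5 (gene ID 16419, chromosome 16 from 33829665 to 33949338), which pairs with Itgav alone, was at 395, 555 and 506 CPM in KO and at 188, 198 and 143 CPM in control. It was 2.75-fold higher in KO (log2 fold change 1.46 with an SE of 0.19, edgeR adjusted p = 0.0201). With 1 library left out, Itgav kept its call only without control 3 (adjusted p up to 0.154 by edgeR in the others), and Itgb5 only without KO 1 or control 3 (up to 0.0887). Itgav also lost its call when each gene was fitted on its transcript with the most reads (adjusted p = 0.0696 by edgeR). Only 1 transcript is listed for Itgav, so its own reads were unchanged in that fit and only other genes' reads differed. Per length the ratio of Itgb5 to Itgb1 was 0.479, 0.661 and 0.597 in KO, against 0.357, 0.359 and 0.305 in control.

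**Figure D2:**
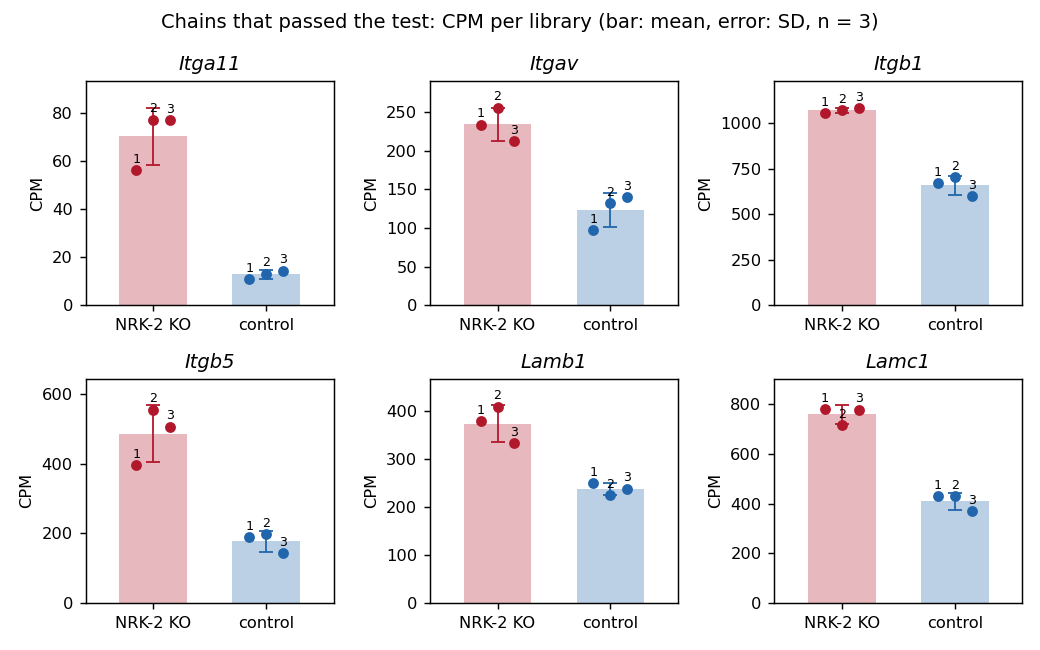
CPM in each library of the 6 chains that passed the test, KO left of control, with bars for the mean, error bars for the SD (n = 3) and the library number at each point. In each panel the lowest KO point is above the highest control point.

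The beta partners of Itgav other than Itgb1 and Itgb5 did not pass. Itgb6, which with Itgav releases TGF-beta from its latent form and is known mainly from epithelia, was at 32.9, 28.5 and 35.2 CPM in KO and at 72.6, 67.2 and 44.1 CPM in control. All KO libraries were below all control libraries, by a log2 fold change of -0.93 (SE 0.20, adjusted p = 0.0605 by edgeR). DESeq2 called it lower (adjusted p = 0.00113), as did the edgeR fit without control 3 (adjusted p = 0.013), edgeR on library totals (0.043) and limma on FPKM (0.0437). With edgeR it was not called under the other scalings and filters (adjusted p = 0.0522 to 0.0707) or on the transcript with the most reads (0.144). Nor was it called by edgeR without any other single library (0.124 to 0.213).

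Itgb8, which also frees latent TGF-beta, was at 11.3, 13.8 and 12 CPM in KO against 6.18, 9.15 and 6.69 CPM in control (log2 fold change 0.75, adjusted p = 0.0918 by edgeR). Its groups did not overlap, and DESeq2 called it higher. EdgeR without a single library did not call Itgb8 (adjusted p = 0.0747 to 0.295). Itgb3, the partner of Itgav on vessels and of Itga2b on platelets, was at 30.8, 26.7 and 16.2 CPM in KO and 5.89, 10.5 and 20.1 CPM in control. KO 3 lay below control 3, so these groups overlapped (log2 fold change 1.01, adjusted p = 0.216 by edgeR), and without control 3 the chain was called (adjusted p = 0.0271). Without any other single library Itgb3 was not called (adjusted p = 0.212 to 0.465 by edgeR). Itga2b itself was at 1.28 to 3.08 CPM in every library, with platelet markers (4 genes, Gp9 at 0 in some libraries) summing to 23.6 to 30.7 CPM in KO and 18.4 to 36.3 CPM in control.

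Of the remaining alpha chains that read the RGD motif, Itga5, the classical fibronectin receptor chain, was at 91.9, 89.9 and 62.1 CPM in KO and 48, 53.9 and 46.2 CPM in control. It missed the threshold (log2 fold change 0.72, adjusted p = 0.069 by edgeR), although the groups did not overlap. Itga5 was called higher by DESeq2 (adjusted p = 0.00587) and by edgeR without control 3 (adjusted p = 0.0472). Without any other single library edgeR did not call it (adjusted p = 0.0724 to 0.231). Itga8, a receptor chain for nephronectin in mesenchymal and smooth muscle cells, was steady at 20.3, 22 and 21.5 CPM in KO but spread over 92.1, 35 and 13.1 CPM in control. Control 1 was thus the highest and control 3 the lowest of all 6 libraries (log2 fold change -1.14, adjusted p = 0.291 by edgeR), and single controls moved the value. Without control 3 the chain was called lower (log2 fold change -1.58, adjusted p = 0.0272 by edgeR), and without control 1 the log2 fold change was -0.18 (adjusted p = 0.853 by edgeR).

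The laminin-binding alpha chains of muscle and vessels showed small differences. Itga7, the laminin receptor chain of striated muscle and the most abundant alpha chain per length at 56.4 FPKM over all libraries, was at 249, 185 and 219 CPM in KO and 281, 263 and 198 CPM in control. The groups overlapped (log2 fold change -0.18 with an SE of 0.18, edgeR adjusted p = 0.565). Itga6, common on endothelium, was at 303, 248 and 259.5 CPM in KO and 244, 203 and 177 CPM in control, without overlap by a narrow margin (log2 fold change 0.38, adjusted p = 0.2 by edgeR). Endothelial markers, 6 genes with none at 0 and none past the test, summed to 1048 to 1329.9 CPM in KO and 1012 to 1345 CPM in control. Itga3 was at 14 to 24.7 CPM in KO and 14.7 to 15.9 CPM in control.

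Itga9, a receptor chain for tenascin C, was at 205, 201 and 224 CPM in KO and 208, 175 and 127 CPM in control (log2 fold change 0.31, adjusted p = 0.355 by edgeR). Itgb4, the partner of Itga6 in epithelial and Schwann cell anchorage, was below 10 CPM in 5 libraries and at 17.2 CPM in control 3. Measured against Itga7 per length, Itgav stood at 0.536, 0.79 and 0.555 in KO and at 0.198, 0.287 and 0.403 in control.

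Leukocyte integrin chains varied widely among libraries of the same genotype. They are the Itgb2 family with Itgal, Itgam, Itgax and Itgad, the Itgb7 family with Itga4 and Itgae, and Itgb2l, a relative of Itgb2. Of the 9 chains 7 were tested and 0 passed edgeR's test (1, Itgae, was higher at an unadjusted p under 0.05, and DESeq2 called 0). Over all genes tested, edgeR called 2.61% higher and 1.09% lower, and DESeq2 7.71% and 9.19%. At an unadjusted p under 0.05 by edgeR the shares were 12.3% and 13.5%. No leukocyte chain had groups that did not overlap, where 16.4% of all genes had every KO library above every control library and 14.5% below. With 7 chains tested, such low counts do not set them apart from all genes. The 9 together summed to 188, 338 and 135 CPM in KO and to 52.4, 99.1 and 379.7 CPM in control. Control 3 was the highest and KO 2 the next.

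Itgb2, the beta chain common to leukocytes, was at 61, 111 and 35 CPM in KO and 16.9, 29.7 and 95.4 CPM in control (log2 fold change 0.54 with an SE of 0.68, edgeR adjusted p = 0.658). Its log2 fold change was 1.57 without control 3 and 0.02 without KO 2, and the call was not made in either fit (adjusted p = 0.0658 and 0.994 by edgeR). Itgax, a chain of dendritic cells and macrophages, was at 18.2, 54.6 and 12.2 CPM in KO and 2.7, 3.81 and 23 CPM in control, control 3 lying above KO 1 and KO 3. Itgae, which marks intraepithelial T cells and some dendritic cells, was at 0.932, 2.16 and 2.56 CPM in KO and 0.294, 0.145 and 0.974 CPM in control. These are low levels, from 3 to 77 reads.

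Itga4, the lymphocyte and monocyte chain that binds Vcam1, was at 32.5 to 59.3 CPM in KO and at 11.3, 17 and 102 CPM in control. Its log2 fold change of -0.06 became 1.56 without control 3 (adjusted p = 0.0242 by edgeR). Without control 3, 3 of the 7 leukocyte chains were called, beside 11.6% of all genes called higher and 12.9% lower in that fit. Without any other single library 0 were, where at most 0.529% of all genes were called higher and at most 0.0686% lower. Itgad and Itgb2l had at most 17 and 29 reads in a library and were not tested. Macrophage and monocyte markers, 6 genes with none at 0 and none past the test, summed to 1601, 2302 and 1423 CPM in KO and 562, 813 and 1747 CPM in control. All 6 had a log2 fold change above 0 (median 0.75), and all 6 were called without control 3. In 1, Adgre1, every KO library lay above every control library, as in 16.4% of all genes tested. DESeq2 called 1 higher, beside 7.71% of all genes. Neutrophil markers (5 genes, Mpo at 0 in some libraries) summed to 12.7 to 72.5 CPM in KO and to 5.74, 13.8 and 100.5 CPM in control. Both lists were highest in KO 2 within KO and in control 3 within control, as were Itgb2 and Itgam. The part of leukocyte number in these values was not tested.

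**Figure D3:**
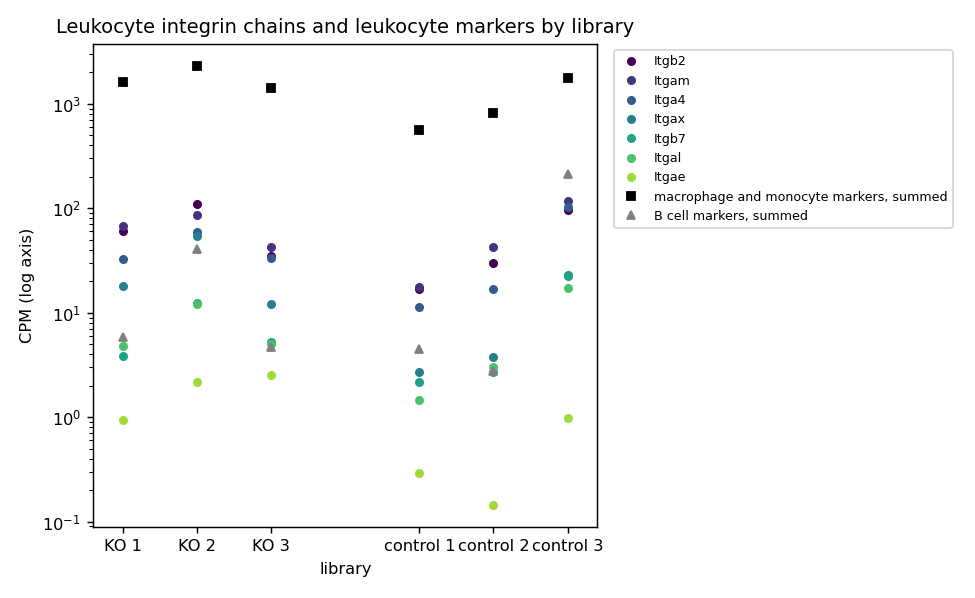
CPM on a log axis of 7 leukocyte integrin chains in each library, KO left of control, beside the summed CPM of macrophage and monocyte markers (squares) and of B cell markers (triangles). Within KO most chains peak in library 2, and within control all 7 peak in library 3, where the summed B cell markers reach 212 CPM.

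Among laminins, the gamma chain Lamc1, present in nearly every laminin of the heart, had the smallest adjusted p. Lamc1 (gene ID 226519, chromosome 1 from 153218922 to 153332786) was at 782, 716 and 779 CPM in KO and at 429.6, 429 and 370.2 CPM in control. The spread within each group was small beside the gap between them. It was 1.85-fold higher in KO (log2 fold change 0.89 with an SE of 0.14, edgeR adjusted p = 0.0286), with an adjusted p of 0.0177 without control 3 and of 0.09 to 0.136 without another library. Per length it made up 96.9%, 93.4% and 96.8% of all laminin gamma chains in KO and 93.6%, 94.8% and 93.7% in control.

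Lamb1 (gene ID 16777, chromosome 12 from 31265294 to 31329639), a beta chain of muscle and vessel laminins, was at 379, 409 and 333 CPM in KO and 249, 224 and 238 CPM in control. It was 1.58-fold higher in KO (log2 fold change 0.66 with an SE of 0.13, edgeR adjusted p = 0.0498), a call kept, with 1 library left out, only without control 3 (adjusted p up to 0.202 in the others). It was lost with RLE scaling (0.0522), without a count filter (0.057) and on each gene's transcript with the most reads (0.0756). Lamb1 has 1 listed transcript, so in this last fit its own reads were unchanged and only other genes' reads differed. Lamb2, the beta chain enriched at synapses, muscle and vessel walls, was the most abundant laminin chain per length (99.2 FPKM over all libraries). It was at 535, 583 and 686 CPM in KO and 639.5, 566 and 402 CPM in control, and these groups overlapped (log2 fold change 0.17, adjusted p = 0.657 by edgeR). The FPKM ratio of Lamb1 to Lamb2 was 0.69, 0.682 and 0.473 in KO and 0.379, 0.385 and 0.577 in control. Control 3 thus lay above KO 3 in this ratio, so the balance of the 2 beta chains overlapped between groups.

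The main alpha chains were higher in every KO library than in every control library, except Lama5, but missed the threshold. Lama2, the chain of muscle basement membrane, was at 411, 460.4 and 606 CPM in KO and 305, 314 and 219 CPM in control (log2 fold change 0.82 with an SE of 0.21, edgeR adjusted p = 0.079). Lama4, the chain of capillary walls, was at 393, 414 and 349 CPM in KO and 269.7, 261 and 256 CPM in control (log2 fold change 0.56 with an SE of 0.13, edgeR adjusted p = 0.0635). Both were called higher by DESeq2 (adjusted p = 0.00422 and 2.71e-05), by limma on FPKM (0.0315 and 0.0337), by edgeR on library totals (0.0429 and 0.0485) and by edgeR without control 3 (0.049 and 0.0337). Without any other single library edgeR called neither (adjusted p = 0.149 to 0.216 for Lama2 and 0.113 to 0.226 for Lama4). Lama5, found in larger vessels and arterioles, was at 144, 221 and 275 CPM in KO and 168, 167 and 176 CPM in control, KO 1 being the lowest of all 6 (log2 fold change 0.32, adjusted p = 0.415 by edgeR).

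Per length, Lama4 took 53.6%, 49.7% and 39.7% of the alpha chains in KO and 48.7%, 47.4% and 51.8% in control. Lama2 took 34.9%, 34.4% and 43% in KO and 34.3%, 35.5% and 27.7% in control. Neither share separated the groups. All 11 laminin chains together came to 389, 441 and 431 FPKM in KO and 279, 263 and 262 FPKM in control.

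**Figure D4:**
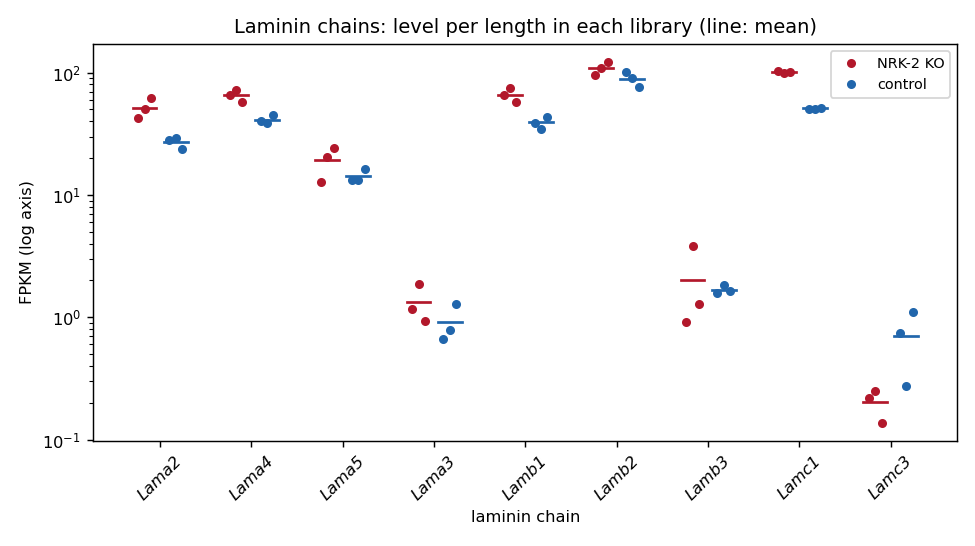
FPKM on a log axis of 9 laminin chains in each library, KO left of control, with a line at the mean (n = 3). Lama2, Lama4, Lamb1 and Lamc1 are separated between the groups with KO above control, and Lamc3 is separated with KO below control. Lamb2 and Lama5 overlap, and the chains Lama3, Lamb3 and Lamc3 lie below 10 FPKM. Lama1 is not drawn because control 1 held 0 reads.

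Lama3 and Lamb3, chains of epithelial laminin, were scarce and were each highest in KO 2. Lamb3 was at 3.73, 14.7 and 5.26 CPM in KO and 7.11, 8.24 and 6.25 CPM in control. Lama3 was at 12, 18.4 and 9.75 CPM in KO and 7.46 to 12.6 CPM in control. Neither Lamb3 nor Lama3 passed the test (adjusted p = 0.895 and 0.382 by edgeR), and without KO 2 the log2 fold change of Lamb3 was -0.68.

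Lama1, the alpha chain of embryonic basement membranes, was not tested. It had 6, 227 and 3 reads in KO and 0, 9 and 9 reads in control, so that nearly all its reads were in KO 2. The lung epithelium markers Sftpc and Sftpb were at 197 and 66.3 CPM in KO 2, at 7.7 and 2.67 CPM in KO 3 and at 0.241 CPM or less in the other 4 libraries. The part of lung tissue in the KO 2 values of these chains was not tested. Lamc3, a scarce gamma chain, was at 1.31, 1.4 and 0.84 CPM in KO and 4.91, 1.83 and 6.21 CPM in control (log2 fold change -1.86 with an SE of 0.52, edgeR adjusted p = 0.0906). DESeq2 called it lower (adjusted p = 0.00862), and edgeR without a single library did not (adjusted p = 0.0919 to 0.246).

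More than 1 transcript was listed for 14 of the chains. The sources used here do not state how reads of shared exons were divided, and transcript shares carry no test. Transcript variant 2 of Itga7 took 30.2%, 31.8% and 21.2% of the gene's reads in KO and 22.4%, 17.2% and 25.4% in control. The groups overlapped, as they did for variant 2 of Itga6, with 45.9%, 39.7% and 40.7% in KO and 44.6%, 40% and 57.2% in control. Variant 2 of Itgb6 took 49.3% in KO 2, against 5.99% in KO 1, 4.05% in KO 3 and 1% to 5.41% in control. Itga8 had all its reads on variant 2 in control 3 and none on it in the other 5 libraries, and reads of Itga3 moved between its variants from library to library within a genotype.

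The genes that work with integrins were read from 3 lists, with 4 genes of each given by the smallest p. Adhesion partners, a list named cytoplasmic, also hold the membrane proteins Cd9, Cd81 and Cd151 and the nuclear protein Itgb3bp. They numbered 40 tested of 41, of which 4 rose and 0 fell (10 and 2 at an unadjusted p under 0.05, and 7 and 1 by DESeq2), with a median log2 fold change of 0.28. Over all genes tested the shares were 2.61% and 1.09% by edgeR, 12.3% and 13.5% at an unadjusted p under 0.05 and 7.71% and 9.19% by DESeq2, and the counts of each list stand beside these. Actn1, the non-muscle actinin that ties integrins to actin, was at 155, 189 and 133 CPM in KO and 55.7, 63.3 and 64.9 CPM in control (log2 fold change 1.37, adjusted p = 0.0138 by edgeR). Parva and Rsu1 belong to the complex of integrin-linked kinase, and Tgfb1i1 is a relative of paxillin. They had log2 fold changes of 0.61, 0.58 and 0.89 (adjusted p = 0.0435, 0.0365 and 0.0436 by edgeR). By contrast Itgb1bp2, the muscle protein melusin that binds the Itgb1 tail and a gene picked here after its values were seen, was at 104, 52.4 and 99.4 CPM in KO and 213, 203 and 118 CPM in control. It lay lower in each KO library without passing (log2 fold change -1.06, adjusted p = 0.104 by edgeR).

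Integrin ligands had the highest median of these lists, at 1.15 over 34 tested of 41 in the table, with 9 risers and 0 fallers (20 and 1 at an unadjusted p under 0.05, and 15 and 0 by DESeq2). Tgfb3, whose latent form is bound by Itgav pairs, was at 194, 247 and 233 CPM in KO and 41.8, 68.7 and 48.8 CPM in control (log2 fold change 2.08, adjusted p = 0.0116 by edgeR). Thrombospondin 1 (Thbs1) was at 798, 923 and 459 CPM in KO and 133, 119.8 and 119 CPM in control (log2 fold change 2.55, adjusted p = 0.0129 by edgeR). Fbln5, an elastic fibre protein, and Frem1, a basement membrane protein of the Fraser complex, had log2 fold changes of 1.64 and 4.22 (adjusted p = 0.013 and 0.0149 by edgeR). Fbn1, Adam9, Ctgf, Postn and Thbs2 rose too, and Postn is also on the list of fibroblast markers.

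Basement membrane and laminin partners counted 36 tested of 37 in the table, with 9 risers and 0 fallers (14 and 2 at an unadjusted p under 0.05, and 14 and 1 by DESeq2) and a median of 0.41. Col15a1, a collagen beside the basement membrane, was at 726, 737 and 709 CPM in KO and 262, 265 and 333 CPM in control (log2 fold change 1.34, adjusted p = 0.0135 by edgeR). Col4a2, Col4a5 and Fbln2 had log2 fold changes of 1.15, 0.79 and 1.12 (adjusted p = 0.0246, 0.0268 and 0.0292 by edgeR). Nid1, the linker between Lamc1 and type IV collagen, was picked after its values were seen. It was at 675, 837 and 866 CPM in KO and 354, 429.7 and 438 CPM in control (log2 fold change 0.96, adjusted p = 0.0375 by edgeR). Dag1, the dystroglycan receptor of laminin and likewise picked afterwards, was at 464, 404 and 528 CPM in KO and 591, 597 and 433 CPM in control, with overlap (log2 fold change -0.22, adjusted p = 0.504 by edgeR).

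The calls in these lists changed with single libraries, as did those over all genes, where 535 were called in either direction with every library. Without KO 1, 2 and 3 in turn, 0, 1 and 0 adhesion partners, 4, 3 and 1 ligands and 0, 0 and 0 basement membrane partners were called, beside 88, 47 and 3 of all genes. Without control 1, 2 and 3 the counts were 0, 0 and 12 partners, 2, 2 and 17 ligands and 0, 0 and 16 basement membrane partners, beside 47, 25 and 3628 of all genes.

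**Figure D5:**
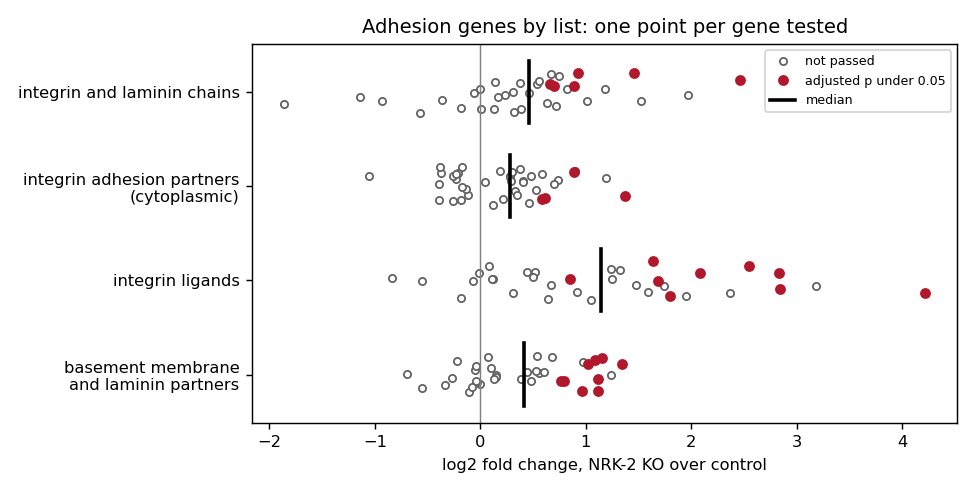
Log2 fold change, NRK-2 KO over control, of each tested gene in 4 lists, with filled points for an adjusted p under 0.05 and a black line at the median. The medians are 0.46, 0.28, 1.15 and 0.41 from top to bottom, and all filled points lie right of 0.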

How the data were processed

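Total RNA of remote left ventricle was sequenced from 2 samples in the labels, after stranded preparation of total RNA (per the labels' protocols). The submitters' processing notes name mm10, HISAT2 and Bowtie2 without roles. The authors deposited whole-number read counts and FPKM per RefSeq transcript and library (36780 transcripts), per the file headers, and transcript length in bases as another property. The sources used here name neither the counting program nor its strand setting, and reads of overlapping genes may not be separable (Itgad with Cox6a2, Itgb4 with Galk1, Itga1 with Pelo).

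The 3 columns beginning with C were taken as control and the 3 beginning with KO as knockout. Pairs of libraries of a genotype differed beyond counting error (median chi-square per gene 3.88 to 19.1 at 1 degree of freedom), and were treated as replicates. The labels do not say that they came from separate animals, and the p-values therefore reflect library-to-library spread alone, possibly technical. Counts were summed per symbol and tested with edgeR 4.0.16 in R 4.3.3 (filterByExpr, TMM, glmQLFTest, two-sided, Benjamini-Hochberg over 14466 genes). A count of 0 allows up to 3 reads. SEs are the log2 fold change over the root of F. Changes are called at an adjusted p under 0.05. FPKM served for levels, shares and ratios between genes, which are also shown by genotype, and for limma 3.58.1 on log2(FPKM + 1). FPKM carries no TMM factor, so gaps between genotypes in FPKM differ from those in CPM. The log2 fold change of Itgb1, for example, was 0.70 with TMM and 0.81 on library totals. DESeq2 1.42.0, other scalings, filters and left-out libraries were alternatives.

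Members and lists were chosen with earlier results of these data known. Values per library are given for called chains, the 10 largest fold changes at a mean of at least 1 CPM, the 5 integrin alpha, 5 integrin beta and 8 laminin chains most abundant per length, Itga7 and Lama2. Itga2b, Itga3, Itga4, Itga5, Itga10, Itgb4, Itgb8, Lama1 and Lama3 were added after their values were seen. Promoters come from RefSeq (GRCm38.p6). Single-gene results of 1 chain and of 1 marker list are not reported here.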

Additional observations from a re-analysis of the deposited data

How the results depend on the processing

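Among refits of single chains under the alternatives, 440 kept direction and side of the threshold, 37 lost a call, 20 gained one and 28 changed sign, among which Itga4 without control 3 also gained a call (adjusted p = 0.0242 by edgeR). Over all genes, 378 higher and 157 lower calls became 1116 and 1329 with DESeq2, 137 and 35 with the transcript with the most reads and 6 and 0 with the library number as a replicate block, and limma on FPKM called 335 lower. Leaving out single libraries gave 3 to 1719 higher and 0 to 1909 lower. Of the chains, 6 were called higher in the full fit, 10 with DESeq2, 3 with the transcript with the most reads and 1 (Itga11, adjusted p = 0.0444 by edgeR) with the replicate block, and 0 to 13 without a library. Called lower were 0 in the full fit, 1 with library totals, 2 with DESeq2, 1 with limma and 0 to 2 without a library. Adhesion partners had 4 calls, 8 with DESeq2, 1 with the transcript with the most reads, 0 with the block and 0 to 12 without a library. Ligands had 9, 15 with DESeq2, 0 with the block and 1 to 17 without a library. Basement membrane partners had 9, 15 with DESeq2, 3 with the transcript with the most reads, 0 with the block and 0 to 16 without a library. Whether same-numbered libraries belong together is not known. Their deviations from the genotype mean had correlations of 0.24, -0.24 and -0.30, which with 3 libraries per genotype cannot decide it. Library totals moved the median of all genes to 0.11, with 8 chains called higher.

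The log2 fold changes that changed sign belonged to chains not called in the full fit, with Itgb4 at -0.57 and Itgb7 at -0.36 there. With RLE factors Itga2b and Itgal became -0.02 and -0.03, and with DESeq2 -0.02 and -0.03. Itgal became -0.01 with upper-quartile factors and -0.00 with the filter of 1 CPM. With limma Itga4 and Itgb7 became 0.39 and 0.13, and with the block Itga4, Itgb7 and Lamb3 became 0.65, 0.36 and -0.11. Without single libraries, Itga2b ran from -0.21 to 0.55, Itga3 from -0.07 to 0.37, Itga4 from -0.51 to 1.56, Itgal from -0.57 to 1.69, Itgam from -0.30 to 1.12, Itgb4 from -0.87 to 0.25, Itgb7 from -1.02 to 1.56, Lamb2 from -0.00 to 0.31 and Lamb3 from -0.68 to 0.47. The cause was not tested. Fewer libraries leave less power, and scarce chains such as Itgae rest on few reads.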
